A study of Arabidopsis thaliana with 88 samples.

Results

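Roots of soil-grown wild-type Arabidopsis (Col-0) were compared between neo-tetraploid plants, which carry 4 sets of chromosomes (4x), and diploid plants, which carry 2 sets (2x). The comparison used 3 libraries of 4x roots and 3 libraries of 2x roots, 6 of the 88 libraries of the series, chosen by their labels for genotype, tissue, growth medium and ploidy. All 6 plants were 5 weeks old, were grown on peat soil in short days, and received no treatment other than the weekly nutrient watering that every soil plant received. Per the methods of the study, each soil library came from 1 plant and the wild-type lines came from earlier work, and the labels name no more than 1 wild-type line of each ploidy, so that ploidy and line cannot be told apart. The wider series holds 4x and 2x plants of the mutants esb1-1, sos3-2, rhd6-3/rsl1-1 and chx25-3, as well as roots of 2-week-old plate-grown plants and soil shoots. The labels name the mutant chx25-3, whereas the paper lists a different chx mutant for the series, so that the identity of this genotype is uncertain. From these, 6 wild-type plate root libraries and 23 mutant soil root libraries were set beside the wild-type soil roots where a difference was tested. The study asked which root processes accompany the higher leaf potassium of neo-tetraploid plants, and the question here was which pathways and cell types of the soil-grown root differed between 4x and 2x.

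Expression was measured by sequencing the 3′ ends of mRNA (QuantSeq), and values are given as read counts scaled to a common library total (CPM). Assigned reads ran from 7553369 to 8715583 in 4x libraries and from 8386982 to 9449313 in 2x libraries, and the value of 3 reads, taken as the floor of detection, ran from 0.253 to 0.317 CPM in 4x and from 0.247 to 0.279 CPM in 2x. The tissue label matched its markers. The 16 leaf photosynthesis genes summed to 67.01 to 99.5 CPM in 4x roots and 46.01 to 167 CPM in 2x roots, against at least 129865 CPM in the wild-type shoots, and 19 genes of the Casparian strip summed to at least 1732 CPM in these roots and at most 36.8 CPM in those shoots. RNA per root was not measured, so that fewer cells of a type and less RNA per cell cannot be told apart in any result below.

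In a root, water and ions that enter from the soil cross the epidermis, where root hairs enlarge the absorbing surface, and reach the endodermis. There the Casparian strip, a band of lignin in the cell wall, and lamellae of suberin block the path between cells, so that ions must pass through membrane transporters before they reach the xylem. Root hairs form in epidermal files under bHLH transcription factors and grow at their tips, which requires expansins, extensins, xyloglucan-modifying enzymes and peroxidases to build and loosen the wall.

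Single genes that passed the test were few and belonged to none of the gene lists described below. Of 20347 genes tested, 10 were called at an adjusted p under 0.05 with a log2 fold change of at least 0.5 in size (edgeR's quasi-likelihood test with Benjamini-Hochberg adjustment), which is 0.0491% of the genes. Of these, 7 genes (0.0344%) rose and 3 (0.0147%) fell in 4x. QQS, a small gene that affects starch content, rose, with 9.35, 13.9 and 21.1 CPM in 4x roots against 3.16, 0.465 and 3.30 CPM in 2x roots (log2 fold change 2.66, SE 0.40, adjusted p = 4.68e-05). AT5G39150 and AT5G39180, which RefSeq annotates as cupins and which may share reads with each other as close relatives, rose by 2.00 (SE 0.43) and 2.44 (SE 0.52) on the log2 scale. The phloem protein 2 gene PP2-B14, the glycine-rich protein gene AT2G05530, the pseudogene AT3G29647 and the uncharacterized gene AT1G75945 also rose, and AT1G18060, AT2G03821 and AT3G01345 fell. AT3G01345 had 0, 0 and 0.0842 CPM in 4x roots against 88.8, 77.8 and 71.2 CPM in 2x roots. AT1G75945 had 32.6, 47.9 and 41.9 CPM in 4x roots against 0.0902, 0 and 0.0825 CPM in 2x roots. Both genes were thus all but silent at 1 ploidy of the wild type. Soil roots of esb1-1, sos3-2, rhd6-3/rsl1-1 and chx25-3 had log2 fold changes of 4.81, -3.87, -1.66 and 2.06 for AT3G01345. For AT1G75945 they had 4.55, 0.327, -5.6 and -0.0539, so that neither gene kept 1 direction across the lines. Plate roots of the wild type had -9.31 for AT3G01345 and 9.87 for AT1G75945, in the direction of the wild-type soil roots. Leaving out 4x replicate 1 gave 5 calls, leaving out 4x replicate 2 gave 6 and leaving out 2x replicate 2 gave 4.

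The pathways and cell types were therefore described through 40 gene lists that hold 599 tested genes. None of these genes was called in the main edgeR fit (lowest adjusted p = 0.431, for ZIP3). An unadjusted p under 0.05 was found for 71 of them, 59 lower and 12 higher in 4x. In other edgeR fits, 2 of them were called with the soil root libraries alone, NIMIN2 higher and XTH4 lower. Another of them, SLAH3, was called lower with the number in the library names as a covariate. DESeq2 called 2 of them, ZIP3 and AT4G26010, limma-voom on counts called the same 2, and limma-voom on counts rebuilt from TPM (scaledTPM) called 22 of 568, of which 19 were lower and 3 higher. Over all tested genes, 3.53% had an unadjusted p under 0.05, 49.8% had a log2 fold change below 0 and 49.6% above 0, 2.05% were lower and 1.48% were higher at that p, and in 6.16% and 4.84% all 4x libraries lay below or above all 2x libraries. Against this background, 29 of the 40 lists had a median log2 fold change below 0. In each library the median over a list of log2(CPM + 1) was also taken, relative to the mean of the 2x libraries. By this measure all 4x libraries lay below all 2x libraries in 12 lists and above them in 0 lists. In several of these the nearest 4x and 2x libraries almost met. They lay at -0.28 and -0.27 for sulfate, -0.09 and -0.08 for iron, and -0.03 and -0.02 for xylem. For root hair growth they lay at -0.33 and -0.02. When each library was left out in turn, the median stayed within 1.5 times its value in 8 lists, namely root hair growth, the Casparian strip, sulfate, boron and molybdenum, nitrogen, tonoplast aquaporins, potassium carriers and regulators of the low-potassium response. In the other 32 it moved further, and in 10 of these its sign changed.

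**Figure D1:**
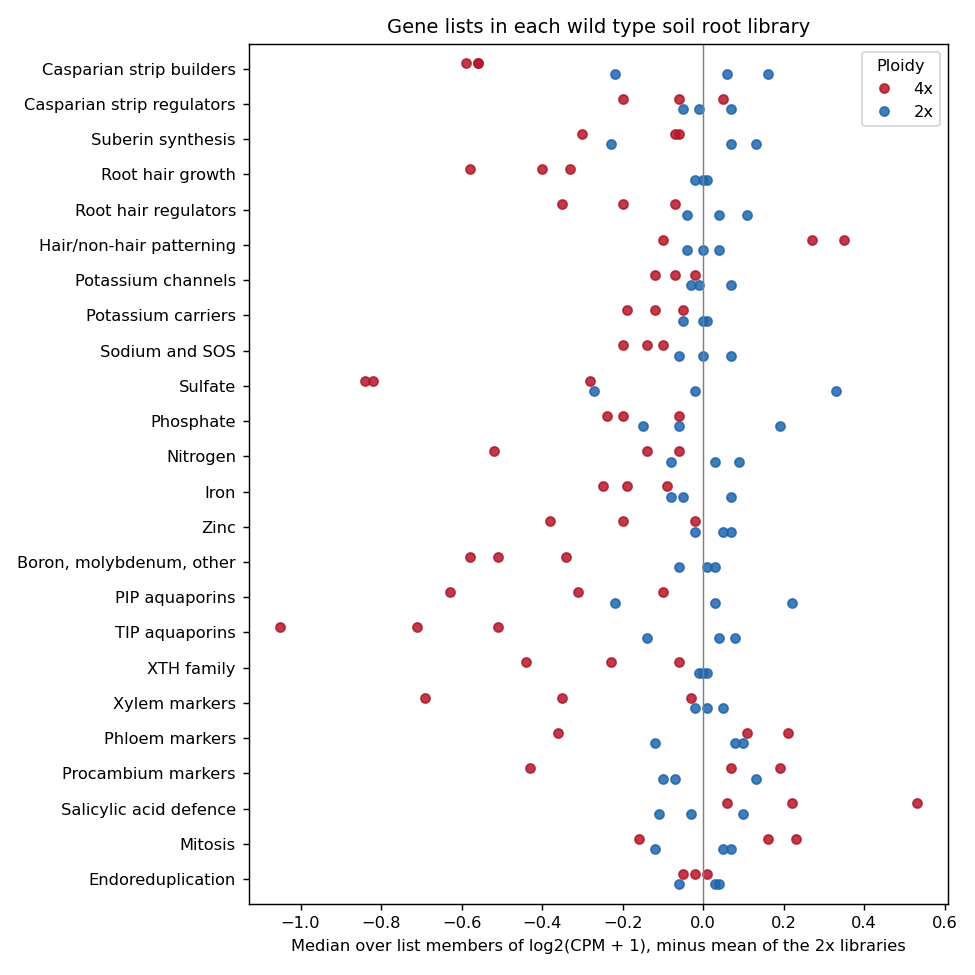
Median over the members of each gene list of log2(CPM + 1) in each library, minus the mean of the 2x libraries, for 24 of the 40 lists. Each point is 1 library, red for 4x and blue for 2x. For root hair growth the 4x libraries lie at -0.33, -0.40 and -0.58, below all 2x libraries, and for potassium channels the libraries lie close together.

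The genes that build the Casparian strip mostly had lower levels in 4x roots. Of 19 members, 17 had a log2 fold change below 0, 7 were lower and 0 were higher at an unadjusted p under 0.05, and in 10 every 4x library lay below every 2x library. Their median log2 fold change was -0.587, and their summed level was 1974, 1732 and 1907 CPM in 4x roots against 2188, 2928 and 2866 CPM in 2x roots. The 4x values were close to each other, while 2x replicate 1 lay nearer to the 4x libraries than the other two. The study had picked 4 of the members as differing in these same libraries, which are therefore no independent evidence of direction, and the median of the other 15 was -0.481.

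The CASP proteins form the membrane scaffold that places the strip. CASP1 measured 137, 142 and 147 CPM in 4x roots against 186, 313 and 243 CPM in 2x roots (log2 fold change -0.80, SE 0.34). CASP4 measured 9.62, 13.3 and 10.1 CPM in 4x roots against 16.1, 26.6 and 21.1 CPM in 2x roots (-0.95, SE 0.40). CASP2 followed the same order at -0.64 (SE 0.31), whereas CASP5, at 0.168 to 0.741 CPM in 4x roots and 0.271 to 1.302 CPM in 2x roots, was too sparse to separate the groups. Each of these genes had an adjusted p of 1 in the edgeR test over all genes. The libraries of the 2 ploidies did not overlap for CASP1, CASP2 and CASP4.

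The genes that lay down strip lignin mostly had lower levels as well, by amounts that varied with the family. ESB1, a dirigent-like protein without which the lignin band is patchy, measured 89.01, 103 and 112 CPM in 4x roots against 123, 220 and 203 CPM in 2x roots (log2 fold change -0.85, SE 0.54, adjusted p = 1 in edgeR). PER64, a peroxidase of the strip, measured 46.3, 44.7 and 36.6 CPM in 4x roots against 60.3, 86.5 and 66.8 CPM in 2x roots (-0.74, SE 0.31), and UCC1, a copper protein of the strip, measured 48.6, 44.7 and 42.6 CPM in 4x roots against 65.5, 98.01 and 70.3 CPM in 2x roots (-0.78, SE 0.32). All 5 peroxidases of the list were below 0, with a median of -0.536, and 4 of them did not overlap. The 4 laccases had a median of -0.320 and overlapped between the groups in every case. Among them LAC13, picked by the study and named here after its values were seen, lay furthest below 0. It measured 4.58, 6.56 and 5.22 CPM in 4x roots against 12.8, 6.23 and 9.81 CPM in 2x roots (-0.82, SE 0.31).

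Among 13 regulators of the strip the median was -0.237, with 8 members below 0 and 5 above, or -0.128 without 2x replicate 1, -0.157 without 4x replicate 2 and -0.073 without 4x replicate 3. MYB36, the transcription factor that switches on the CASP genes, measured 20.9, 18.8 and 21.1 CPM in 4x roots against 32.9, 30.8 and 29.02 CPM in 2x roots (log2 fold change -0.61, SE 0.21, adjusted p = 0.941 in edgeR), and the groups did not overlap. GSO2, a receptor kinase related to the one that senses gaps in the strip, had 1.19, 1.06 and 1.94 CPM in 4x roots against 2.62, 1.95 and 2.80 CPM in 2x roots (-0.80, SE 0.34). AT2G16385 went the other way, with 11.2, 9.21 and 8.59 CPM in 4x roots against 7.40, 5.39 and 6.27 CPM in 2x roots (0.60, SE 0.30). MYB36 was among the genes the study picked, and without it the median was -0.123.

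Suberin genes had a median nearer to 0 than the Casparian strip genes, a difference that was not tested. The 18 synthesis and export genes had a median of -0.134, with 12 below 0, 1 on each side of 0 at an unadjusted p under 0.05, and the sign of this median turned positive, to 0.047, when replicate 1 of both groups was left out. ABCG2, an exporter of suberin precursors, measured 6.33, 8.36 and 10.7 CPM in 4x roots against 5.32, 3.72 and 5.44 CPM in 2x roots (log2 fold change 0.81, SE 0.32). The 9 transcription factors of suberin synthesis had a median of -0.385, or -0.229 without 4x replicate 1. Their summed level was 57.5, 70.8 and 64.5 CPM in 4x roots against 87.8, 81.3 and 89.1 CPM in 2x roots, without overlap. WRKY9, which acts upstream of suberin enzymes and was picked by the study, measured 11.9 to 16.04 CPM in 4x roots against at least 21.85 CPM in every 2x root (-0.69, SE 0.30). The 14 genes of monolignol synthesis, which supply lignin units to the whole root, had a median of 0.028 and summed to 2485, 2714 and 2390 CPM in 4x roots against 2827, 2388 and 2402 CPM in 2x roots, so that the groups overlapped.

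**Figure D2:**
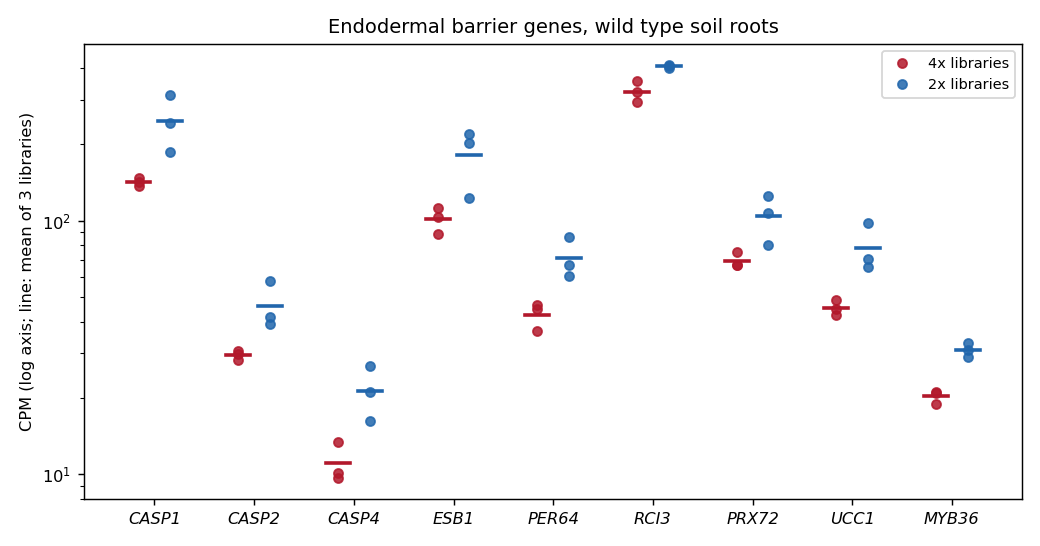
CPM on a log axis of 9 endodermal barrier genes in each wild-type soil root library, 4x in red left of 2x in blue, with a line at the mean of 3 libraries. The genes were drawn because their libraries did not overlap, and all points of 4x lie below those of 2x, such as 137 to 147 CPM against 186 to 313 CPM for CASP1.

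Root hair growth genes had the lowest median of the lists with more than 18 tested members. Of 37 members, 35 had a log2 fold change below 0, 12 were lower and 0 were higher at an unadjusted p under 0.05, and in 17 every 4x library lay below every 2x library, with a median of -0.603. The summed level was 443, 411 and 386 CPM in 4x roots against 592, 590 and 585 CPM in 2x roots, which is 413 ± 28.5 CPM and 589 ± 4.05 CPM (SD, n = 3 each). The 2x libraries were almost alike, and every 4x library lay clearly below them. The study had picked 3 of the members, and the other 34 had a median of -0.556.

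The shift was larger among the 22 wall genes of the list than among the 15 signalling genes. Grouped by role after their values had been seen, the wall genes had a median of -0.742 with 22 below 0 and 13 without overlap, and the signalling genes a median of -0.459 with 13 below 0 and 4 without overlap. This difference between roles was not tested. EXPA7, an expansin of root hair cells that loosens the wall, measured 6.60, 8.78 and 5.05 CPM in 4x roots against 16.9, 14.2 and 12.8 CPM in 2x roots (log2 fold change -1.10, SE 0.38, adjusted p = 0.939 in edgeR). EXPA18, its close relative, measured 4.77, 5.40 and 3.12 CPM in 4x roots against 9.29, 8.83 and 9.32 CPM in 2x roots (-1.05, SE 0.38). AT4G26010, annotated as a peroxidase, averaged 14.9 ± 4.35 CPM in 4x roots against 37.8 ± 4.25 CPM in 2x roots (SD, n = 3 each), with no 4x library above 19.5 CPM and no 2x library below 33.6 CPM (-1.34, SE 0.40, adjusted p = 0.542), and the groups of all these genes stood apart.

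Structural wall proteins had fold changes of varied size, and differences between them were not tested. The proline-rich protein gene PRP3 measured 13.8, 10.4 and 11.03 CPM in 4x roots against 21.5, 21.1 and 23.7 CPM in 2x roots (log2 fold change -0.91, SE 0.45), and the extensin gene EXT10 measured 15.2, 13.5 and 16.8 CPM in 4x roots against 23.45, 20.4 and 26.5 CPM in 2x roots (-0.63, SE 0.41). LRX1, a chimeric leucine-rich repeat extensin, measured 5.59, 5.61 and 6.06 CPM in 4x roots against 8.30, 10.97 and 10.1 CPM in 2x roots (-0.76, SE 0.38). SHV3, a membrane-anchored protein needed for hair walls, overlapped between the groups at 29.4, 24.8 and 18.5 CPM in 4x roots and 25.3, 24.2 and 27.7 CPM in 2x roots (-0.09, SE 0.28). Of their relatives in the list, the sparse PRP1 at -0.12 (SE 0.68) and LRX2 at -0.30 (SE 0.72) overlapped between the ploidies. All of these wall genes were chosen with their values in view.

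On the signalling side, PIP5K3, a lipid kinase at the hair tip, was sparse and did not overlap, with 0.733, 0.317 and 0.421 CPM in 4x roots against 1.08, 1.302 and 1.154 CPM in 2x roots (log2 fold change -1.23, SE 0.45). The more abundant GTPase gene ROP2, which marks the site of hair outgrowth, overlapped at 65.9, 75.1 and 73.9 CPM in 4x roots and 85.5, 69.1 and 83.9 CPM in 2x roots (-0.15, SE 0.30), and SCN1, which confines it, did so at -0.05 (SE 0.17). ROP2 and SCN1, likewise chosen with values in view, act in many root cells besides hairs.

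The transcription factors above these genes overlapped between the ploidies one by one, while their summed level was lower in 4x. The 8 tested members of 10 in the list of bHLH and related regulators had a median of -0.216 with 7 below 0 and 0 without overlap. Their summed level was 85.7, 82.5 and 89.5 CPM in 4x roots against 107.3, 99.96 and 96.9 CPM in 2x roots, so that every 4x library lay below every 2x library, and without 4x replicate 1 the median was -0.386. LRL1 and ZFP5, which averaged 48.9 and 19.8 CPM in 4x roots, made up most of the sum. The sum therefore says little about RHD6, RSL2 and RSL4. RHD6, which starts hair formation, measured 2.108, 1.80 and 1.35 CPM in 4x roots against 1.99, 2.88 and 1.154 CPM in 2x roots (log2 fold change -0.19, SE 0.37), and RSL4, which sets hair length, 0.825, 1.27 and 0.505 CPM in 4x roots against 1.08, 0.465 and 1.90 CPM in 2x roots (-0.44, SE 0.58). RSL2 measured 5.41, 3.07 and 2.44 CPM in 4x roots against 7.40, 5.49 and 4.37 CPM in 2x roots (-0.66, SE 0.47). The 12 genes that set hair against non-hair fate had a median of 0.154 with 8 above 0, or 0.087 without 4x replicate 1 and 0.336 without 4x replicate 3. GL2, the homeodomain factor of non-hair cells, measured 5.32, 1.80 and 2.27 CPM in 4x roots against 3.70, 2.98 and 2.47 CPM in 2x roots (0.04, SE 0.40). At these levels, between 0.465 and 7.40 CPM for the named factors, a difference of the size seen in the wall genes could have been missed.

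**Figure D3:**
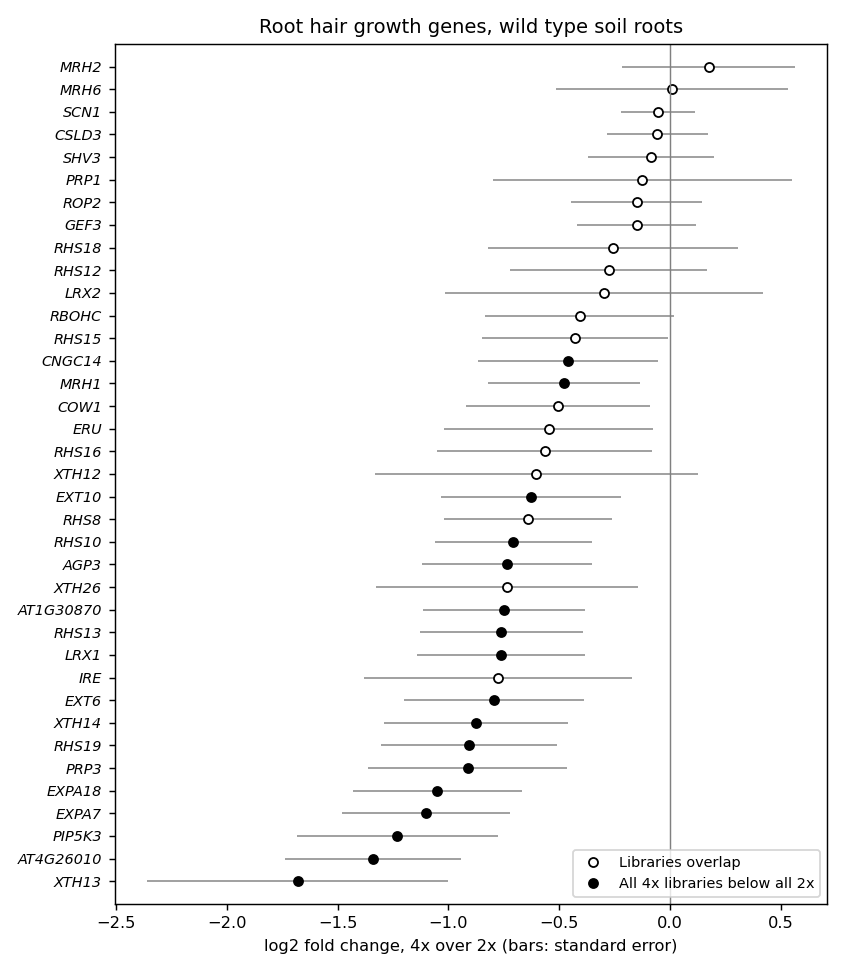
log2 fold change, 4x over 2x, of the 37 root hair growth genes in wild-type soil roots, with standard errors as bars. Filled points mark the 17 genes whose 4x libraries all lay below their 2x libraries, and 35 of the 37 genes lie left of 0.

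Root hair genes are known to share a promoter element bound by the RHD6 and RSL factors, and the element was looked for in the 300 bases before the start of each gene. It was searched as TGNNNGCACG, TGNNNTCACG, TGNNNNGCACG and TGNNNNTCACG on both strands, in the RefSeq genome TAIR10.1 with RefSeq's gene starts, matched to the files by locus code. A match was present in 12 of the 37 root hair growth genes, or 32.4%, and in 1319 of 27443 promoters in all, or 4.81%. Several members were first named from searches with this element, so that the share is no finding of these libraries. The 12 genes with a match had a median log2 fold change of -0.627 and the 25 without had -0.603, with 6 and 11 genes free of overlap, so that the fold changes of both kinds lay close together. The promoters of the 6 genes with a match and no overlap between ploidies are shown, because these are the members in which the element and the lower level occur together. Capitals mark the matches. They are, in order, EXPA7 at chr1:4276205-4276504 on the plus strand, EXPA18 at chr1:23331263-23331562 on the plus strand, PRP3 at chr3:23182422-23182721 on the plus strand, LRX1 at chr1:4069692-4069991 on the plus strand, RHS10 at chr1:26555405-26555704 on the plus strand and RHS13 at chr4:993040-993339 on the minus strand.
EXPA7: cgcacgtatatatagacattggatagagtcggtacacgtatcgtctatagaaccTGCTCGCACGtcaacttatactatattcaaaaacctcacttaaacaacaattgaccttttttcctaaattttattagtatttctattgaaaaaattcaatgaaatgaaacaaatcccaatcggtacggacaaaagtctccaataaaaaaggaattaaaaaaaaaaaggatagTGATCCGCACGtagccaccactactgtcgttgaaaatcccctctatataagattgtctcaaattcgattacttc
EXPA18: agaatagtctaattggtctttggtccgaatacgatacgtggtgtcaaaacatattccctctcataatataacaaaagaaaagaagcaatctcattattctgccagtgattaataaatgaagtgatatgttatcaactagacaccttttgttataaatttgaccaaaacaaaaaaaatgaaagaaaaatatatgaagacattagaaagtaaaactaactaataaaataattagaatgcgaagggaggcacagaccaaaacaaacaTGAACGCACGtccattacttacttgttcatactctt
PRP3: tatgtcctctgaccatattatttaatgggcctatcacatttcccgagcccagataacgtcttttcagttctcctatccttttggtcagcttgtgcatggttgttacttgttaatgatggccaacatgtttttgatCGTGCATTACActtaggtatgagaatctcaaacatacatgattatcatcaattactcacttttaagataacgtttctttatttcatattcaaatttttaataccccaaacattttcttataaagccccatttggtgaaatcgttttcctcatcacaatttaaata
LRX1: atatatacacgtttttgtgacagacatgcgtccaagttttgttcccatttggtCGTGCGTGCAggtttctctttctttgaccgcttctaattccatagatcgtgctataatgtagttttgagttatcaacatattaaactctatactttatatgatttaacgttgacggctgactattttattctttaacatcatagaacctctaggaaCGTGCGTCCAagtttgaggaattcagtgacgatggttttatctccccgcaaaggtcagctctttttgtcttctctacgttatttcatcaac
RHS10: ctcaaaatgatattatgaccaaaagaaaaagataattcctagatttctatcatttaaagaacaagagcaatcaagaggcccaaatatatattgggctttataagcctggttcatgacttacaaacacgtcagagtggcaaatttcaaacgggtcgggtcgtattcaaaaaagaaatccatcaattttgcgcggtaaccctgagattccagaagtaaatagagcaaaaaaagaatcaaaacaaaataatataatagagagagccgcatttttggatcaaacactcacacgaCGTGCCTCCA
RHS13: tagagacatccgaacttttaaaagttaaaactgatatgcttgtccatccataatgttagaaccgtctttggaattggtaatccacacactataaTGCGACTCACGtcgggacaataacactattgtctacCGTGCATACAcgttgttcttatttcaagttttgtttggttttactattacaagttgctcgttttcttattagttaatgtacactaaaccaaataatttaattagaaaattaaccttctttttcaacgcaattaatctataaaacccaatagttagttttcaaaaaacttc
In EXPA7, LRX1 and RHS13 the element occurred at 2 places of the window, and in EXPA18, PRP3 and RHS10 at 1. The levels of EXPA7, EXPA18, PRP3 and LRX1 were given above. RHS13 measured 32.4, 27.2 and 24.6 CPM in 4x roots against 44.1, 51.3 and 47.2 CPM in 2x roots (log2 fold change -0.76, SE 0.37), and RHS10, a receptor-like kinase gene, 3.67, 4.23 and 1.94 CPM in 4x roots against 5.05, 4.65 and 6.27 CPM in 2x roots (-0.71, SE 0.35).

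Potassium transport genes were mostly below 0 by small amounts. Of 44 channels, carriers and low-potassium regulators, 38 were tested, and these had a median log2 fold change of -0.117, with 28 below 0 and an unadjusted p under 0.05 in 1 member on each side. All 4x libraries lay below all 2x libraries in 6 members and above them in 1. The 8 tested regulators of the low-potassium response had a median of -0.110 and were among the 12 lists in which all 4x libraries lay lower. The gap was small, with the nearest 4x and 2x libraries at -0.08 and -0.06. The 10 tested channels had a median of -0.086 and 0 without overlap. Without 4x replicate 1 the median was -0.032 and without 2x replicate 2 it was -0.132. The 10 include KAT2, with 0 reads in all 6 libraries, and KAT1, with at most 1 read in any of them. Their fold changes of 0 and 0.779 enter the median but carry no information on ploidy. AKT1, the main inward channel of the root, measured 64.9, 40.6 and 46.2 CPM in 4x roots against 62.9, 48.4 and 53.1 CPM in 2x roots (-0.12, SE 0.31, adjusted p = 1 in edgeR). SKOR, which releases potassium into the xylem, measured 60.4, 40.6 and 34.3 CPM in 4x roots against 73.2, 58.8 and 41.3 CPM in 2x roots (-0.36, SE 0.35). GORK, an outward channel of hairs, and KAT3, a modulating subunit of AKT1, had -0.28 (SE 0.30) and -0.26 (SE 0.29). The libraries of all 4 channels overlapped between the ploidies.

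Among the 20 carriers, 17 had a log2 fold change below 0 but the median was -0.129. HAK5, the high-affinity uptake carrier that is induced when potassium is short, measured 4.77, 2.54 and 4.55 CPM in 4x roots against 5.86, 9.21 and 6.27 CPM in 2x roots (-0.84, SE 0.41), without overlap. Its activator RAP2.11 followed the same order, with 1.74, 3.49 and 2.70 CPM in 4x roots against 5.05, 4.46 and 4.86 CPM in 2x roots (-0.86, SE 0.46). MYB51 had 19.7, 9.63 and 7.495 CPM in 4x roots against 6.04, 7.53 and 7.09 CPM in 2x roots (0.83, SE 0.37), where 4x replicate 1 set most of the difference. Each of these had an adjusted p of 1 in edgeR.

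Sodium genes had a median of -0.160 over 15 tested members, with 12 below 0, or -0.086 without 4x replicate 2. SOS3, the calcium sensor whose loss defines sos3-2, measured 5.68, 4.76 and 4.55 CPM in 4x roots against 8.66, 6.88 and 7.503 CPM in 2x roots (log2 fold change -0.62, SE 0.29), without overlap. HKT1, which takes sodium back from the xylem, measured 47.1, 86.7 and 35.7 CPM in 4x roots against 120, 88.99 and 57.6 CPM in 2x roots (-0.65, SE 0.33), and SOS1, the sodium/proton antiporter, 8.34, 7.301 and 10.4 CPM in 4x roots against 10.6, 9.58 and 7.17 CPM in 2x roots (-0.06, SE 0.22). The wider family of CBL calcium sensors and CIPK kinases, with 33 tested members, had a median of -0.115 that turned to 0.012 without 2x replicate 1. Its sparse member CBL8 had 0.917, 0.212 and 1.01 CPM in 4x roots against 1.44, 2.05 and 2.64 CPM in 2x roots (-1.46, SE 0.55).

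Genes for other mineral nutrients had lower levels in 4x roots in most cases. Of 116 tested members of the sulfate, phosphate, nitrogen, iron, zinc and boron or molybdenum lists, 90 had a log2 fold change below 0, with a median of -0.319. At an unadjusted p under 0.05, 19 were lower and 0 were higher, and 30 were without overlap below against 1 above. None was called in the main edgeR fit, while SLAH3 was called lower by edgeR with the library number as a covariate. The share below 0 was close to that of the potassium genes, while the median lay further from 0, and neither difference was tested.

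Sulfate genes had the lowest median of the mineral lists, at -0.760, or -0.692 with SULTR1;3 and BGLU28, which had 0 counts in 4x roots, put at their bound. Of 18 members, 17 were below 0. SULTR1;2, the main sulfate importer of the root, measured 129, 95.8 and 176 CPM in 4x roots against 234, 223 and 230 CPM in 2x roots (log2 fold change -0.78, SE 0.30), and SULTR1;1, its high-affinity partner, 3.48, 2.43 and 5.22 CPM in 4x roots against 7.67, 8.18 and 7.01 CPM in 2x roots (-1.02, SE 0.39). Genes known to be induced by sulfur shortage had lower levels too. LSU3 measured 1.01, 1.16 and 2.70 CPM in 4x roots against 4.24, 3.07 and 5.03 CPM in 2x roots (-1.32, SE 0.63), and GGCT2;1, which breaks down glutathione, 0.642, 0.741 and 1.68 CPM in 4x roots against 5.68, 2.33 and 3.79 CPM in 2x roots (-1.91, SE 0.67, adjusted p = 0.941 in edgeR). The summed level was 496, 409 and 646 CPM in 4x roots against 1028, 633 and 768 CPM in 2x roots, so that 4x replicate 3 and 2x replicate 2 overlapped in the sum, and without replicate 1 of both groups the median was -0.504.

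Micronutrient genes contained the single lowest adjusted p of any list member. ZIP3, a zinc importer, measured 27.5, 14.8 and 15.8 CPM in 4x roots against 51.96, 47.9 and 37.8 CPM in 2x roots (log2 fold change -1.24, SE 0.35, adjusted p = 0.431 in edgeR). Its relatives ZIP2 and ZIP9 had -0.83 (SE 0.34) and -1.37 (SE 0.48), and HMA2, which pumps zinc toward the xylem, measured 2.108, 4.97 and 5.22 CPM in 4x roots against 9.29, 9.48 and 7.26 CPM in 2x roots (-1.08, SE 0.36). FIT, the bHLH factor that directs iron uptake, measured 10.91, 8.04 and 11.4 CPM in 4x roots against 22.5, 20.9 and 23.2 CPM in 2x roots (-1.13, SE 0.34, adjusted p = 0.603), although the 31 tested iron genes together had a median of -0.230. None of these 5 genes overlapped between the ploidies, and 4 of them had been picked by the study. The 17 tested zinc genes had a median of -0.235 with 11 below 0 and 6 above, or -0.096 with 8 below and 6 above without the 3 that the study picked. Without 2x replicate 1 the median was -0.124 for zinc and -0.119 for iron, and without 2x replicate 2 it was -0.378 for zinc.

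Boron and molybdenum uptake pointed the same way. NIP5;1, a boric acid channel, measured 204, 212 and 270 CPM in 4x roots against 371, 375 and 421 CPM in 2x roots (log2 fold change -0.76, SE 0.28). MOT1, a molybdate transporter, averaged 12.2 ± 1.146 CPM in 4x roots against 32.4 ± 8.95 CPM in 2x roots (SD, n = 3 each; -1.41, SE 0.48), and every 4x library lay below every 2x library. ALMT1, which exports malate, measured 11.6, 7.301 and 13.5 CPM in 4x roots against 14.6, 22.8 and 17.5 CPM in 2x roots (-0.76, SE 0.36). The list of 12 had a median of -0.466, or -0.308 without the 3 members the study picked.

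Uptake of the major anions and of ammonium showed the pattern in single genes more than in whole lists. The 20 tested phosphate genes had a median of -0.158, which ran from -0.316 without 4x replicate 2 to -0.085 without 2x replicate 1, and the 18 tested nitrogen genes -0.228. PHT1;1, a phosphate importer of hair cells, measured 83.4, 78.9 and 128 CPM in 4x roots against 196, 142 and 157 CPM in 2x roots (log2 fold change -0.77, SE 0.34), and PHT1;4 had the same fold change (SE 0.37). SLAH3, an anion channel, measured 13.5, 15.8 and 20.97 CPM in 4x roots against 37.7, 49.6 and 32.8 CPM in 2x roots (-1.26, SE 0.37, adjusted p = 0.590 in edgeR), and AMT1;1, an ammonium importer, 36.9, 36.3 and 38.8 CPM in 4x roots against 51.8, 57.1 and 71.2 CPM in 2x roots (-0.69, SE 0.24). The groups stood apart for each.

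Aquaporins, the water channels, were among the most abundant members of any list. Of 20 tested, 18 had a log2 fold change below 0, with a median of -0.467, and 9 were without overlap below and 0 above. The tonoplast family summed to 4674, 7224 and 7383 CPM in 4x roots against 9851, 12245 and 12244 CPM in 2x roots, and every 4x library lay below every 2x library. The plasma membrane family summed to 5837, 7184 and 4760 CPM in 4x roots against 9334, 8242 and 6917 CPM in 2x roots and overlapped, and leaving out 2x replicate 1 or 4x replicate 3 took its median of -0.440 to -0.251 or -0.244. TIP1;1 measured 975, 1301 and 1043 CPM in 4x roots against 2183, 2062 and 1812 CPM in 2x roots (-0.87, SE 0.34), TIP2;2 measured 627, 874 and 924 CPM in 4x roots against 1370, 1618 and 1560 CPM in 2x roots (-0.91, SE 0.35), and PIP1;1 of the plasma membrane 773, 1056 and 971 CPM in 4x roots against 1559, 1722 and 1414 CPM in 2x roots (-0.74, SE 0.37). Each had an adjusted p of 1 in edgeR.

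Among wall-loosening enzymes, most xyloglucan-modifying genes had lower levels in 4x roots, while expansins had a median near 0. The xyloglucan endotransglucosylase genes (XTH) cut and rejoin wall xyloglucan, and 4 of them are also hair genes. The 28 tested had a median of -0.317 with 19 below 0 and 9 above, or -0.190 without 4x replicate 3. At an unadjusted p under 0.05, 6 were lower and 1 was higher, and 10 were without overlap below against 1 above. Their summed level was 717, 859 and 854 CPM in 4x roots against 999, 1089 and 1071 CPM in 2x roots, without overlap. XTH18 measured 54.5, 34.4 and 34.8 CPM in 4x roots against 91.2, 80.5 and 79.2 CPM in 2x roots (log2 fold change -1.02, SE 0.38), XTH17 had -1.12 (SE 0.40) and XTH15 had -0.88 (SE 0.34). XTH20 went the other way without overlap, with 28.5, 21.4 and 22.7 CPM in 4x roots against 16.4, 10.7 and 11.96 CPM in 2x roots (0.89, SE 0.32, adjusted p = 0.941 in edgeR). These 4 XTH genes had been picked by the study. The 18 expansins had a median of -0.055, and EXPA7 and EXPA18, the hair expansins, were the 2 of them without overlap.

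**Figure D4:**
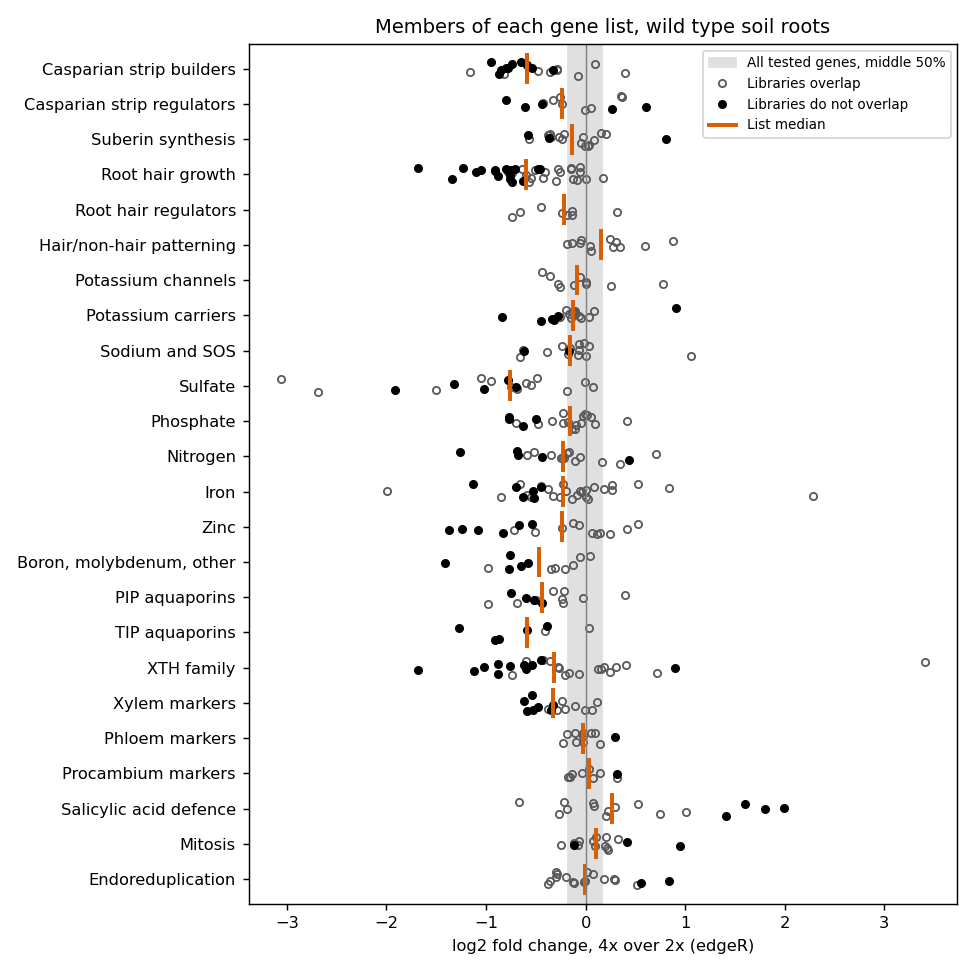
log2 fold change, 4x over 2x, of every tested member of 24 gene lists. Filled points are genes without overlap between the ploidies, orange lines are list medians, such as -0.760 for sulfate, and the grey band holds the middle 50% of all tested genes, from -0.173 to 0.169. Fitted values of genes with 0 counts at 1 ploidy, such as the 2 farthest sulfate genes on the left, are not bounds.

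Defence genes were among the few lists above 0. The 16 genes of the salicylic acid response had a median log2 fold change of 0.261 with 12 above 0, or 0.058 without 4x replicate 1, and 0.442, 0.457 and 0.481 without 2x replicate 2, 2x replicate 3 and 4x replicate 2. In this list an unadjusted p under 0.05 was found for 4 members above 0 and 0 below. NIMIN2, which interacts with the salicylic acid receptor NPR1, measured 11.2, 8.57 and 12.7 CPM in 4x roots against 3.43, 1.58 and 4.29 CPM in 2x roots (1.80, SE 0.54, adjusted p = 0.602 in edgeR). WRKY62 measured 9.07, 5.82 and 6.23 CPM in 4x roots against 2.17, 2.23 and 2.56 CPM in 2x roots (1.60, SE 0.54), WRKY38 had 1.41 (SE 0.56) and the glucanase gene PR2 had 1.99 (SE 0.95), all without overlap. NIMIN2 and WRKY62 had been picked by the study, and the other 14 members had a median of 0.213. CYP79B3 and CYP83B1, enzymes of indole glucosinolate synthesis, were higher without overlap at 0.55 (SE 0.24) and 0.68 (SE 0.27), within a list of 16 with a median of 0.155. That median was 0.008 without 4x replicate 1, 0.084 to 0.091 without 2x replicate 3 or 2, 0.265 without 4x replicate 3 and 0.451 without 2x replicate 1.

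Medians of several hormone and stress lists moved with the libraries that entered the fit. The 17 rapid stress genes had a median of 0.434, or 0.061 without 4x replicate 1. The 24 abscisic acid response genes had -0.381, with 21 below 0. This median ran from -0.584 to -0.213 with 1 library left out, and was 0.004 with replicates 2 and 3 alone. Their summed level was 545, 748 and 712 CPM in 4x roots against 1022, 936 and 858 CPM in 2x roots, without overlap. The 8 tested heat shock genes had -0.992, or 0.375 with replicates 2 and 3 alone, and their sum of 502 CPM in 2x replicate 1 stood far above the 83.6 to 192 CPM of the 4x libraries and the 118 and 195 CPM of the other 2x libraries. MBF1C, a coactivator of the heat response, measured 10.7, 11.2 and 14.9 CPM in 4x roots against 48.6, 21.1 and 14.4 CPM in 2x roots (-1.19, SE 0.42, adjusted p = 0.941 in edgeR). The 18 jasmonate and 9 triterpene genes had medians of 0.096 and 0.190.

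Markers of other root tissues had medians nearer to 0 than those of hairs and the Casparian strip, and this difference was not tested. The 15 xylem genes had a median log2 fold change of -0.330 with 13 below 0 and 7 without overlap, or -0.189 without 4x replicate 1 and -0.513 without 4x replicate 3. CESA4 and CESA7, cellulose synthases of the secondary wall, measured -0.54 (SE 0.24) and -0.59 (SE 0.27). XCP2, the most abundant xylem marker, overlapped at 82.9, 96.6 and 132 CPM in 4x roots and 124, 140 and 140 CPM in 2x roots. The 11 phloem, 9 procambium and 2 cortex markers had medians of -0.027, 0.033 and -0.447, with SEOR1 at -0.10 (SE 0.26), HB-15 at -0.14 (SE 0.26) and AT1G09750 at -0.46 (SE 0.41). Root cap and stem cell markers summed to 20.4, 17.99 and 15.2 CPM in 4x roots against 16.6, 18.04 and 17.5 CPM in 2x roots, with a median of 0.185 over 6 genes and 4 above 0, and the cap factor BRN2 went against the list at -0.45 (SE 0.29). Without 4x replicate 1 this median was 0.025. The 16 leaf genes overlapped between the ploidies, with a median of -0.188, 13 below 0 and 1 high sum of 167 CPM in 2x replicate 2, without which the median was 0.871. Their most abundant member PSBO1 went against the list at 0.18 (SE 0.28).

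Genes of the cell cycle did not mark the ploidies. The 15 mitosis genes had a median of 0.104 and the 18 endoreduplication genes -0.008. FZR1, an activator of the anaphase-promoting complex that promotes endoreduplication, was higher without overlap at 5.32, 4.44 and 3.54 CPM in 4x roots against 3.16, 2.14 and 2.14 CPM in 2x roots (log2 fold change 0.83, SE 0.34, adjusted p = 1 in edgeR).

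The libraries carry numbers in their names, 34, 61 and 95 in 4x replicates 1 to 3, 52 and 99 in 2x replicates 1 and 2, and the highest number in 2x replicate 3. At each replicate number the 4x library had the lower library number, so that library number and ploidy are partly confounded. What the library numbers stand for is not stated, and clock genes followed them. The 6 morning genes summed to 330, 250 and 44.2 CPM in 4x roots against 374, 33.01 and 15.1 CPM in 2x roots, high in libraries 34, 52 and 61 and low in the 3 with higher numbers, whereas the 9 day and evening genes were lowest in libraries 34 and 52. Their part in the other results was not tested. With the library number as a covariate, the median was -0.727 for root hair growth, -0.527 for the Casparian strip, -0.800 for sulfate, -0.115 for potassium carriers and -0.002 for potassium channels. Libraries 95 of 4x and 99 of 2x are close in number. In them root hair genes summed to 386 CPM in 4x and 590 CPM in 2x. Casparian strip genes summed to 1907 CPM in 4x and 2928 CPM in 2x, and sulfate genes to 646 CPM in 4x and 633 CPM in 2x. With 1 plant on each side these values say nothing about the spread between plants, and the part of the library number was not tested.

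**Figure D5:**
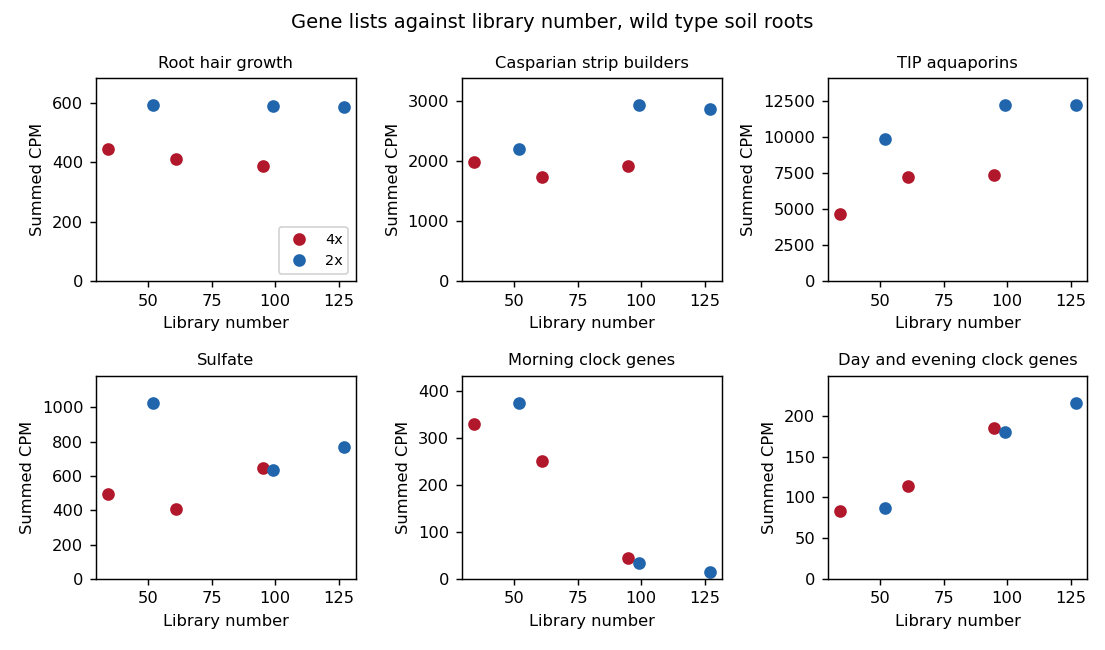
Summed CPM of 6 gene lists against the number in the library name, 4x in red and 2x in blue, each point 1 library. In root hair, Casparian strip and tonoplast aquaporin genes the sum of every 4x library lies below that of every 2x library, whereas the sums of clock genes follow the library number, with 374 CPM at library 52 and 15.1 CPM at the highest number for morning genes in 2x.

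Whether the shifts differed from those of younger plate-grown wild-type roots was tested gene by gene. No gene was called for a soil minus plate difference in edgeR (0 of 20347 genes, or 0%), 320 genes or 1.57% had an unadjusted p under 0.05, and DESeq2 called 3. In plate roots the median log2 fold change of 4x over 2x was -0.097 for root hair growth, -0.180 for the Casparian strip, -0.110 for sulfate and -0.149 for tonoplast aquaporins, each nearer to 0 than in soil roots. Of the 37 root hair growth genes, 23 were below 0 in plate roots and 2 had an unadjusted p under 0.05 for the difference. Hair genes were more abundant on plates, at 1784 to 4078 CPM in 4x and 2248 to 4292 CPM in 2x, and the plate plants also differed in age and medium.

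The mutant soil roots, grown alongside, showed the hair shift in part. The median log2 fold change of the root hair growth genes was -0.423 in esb1-1, -0.283 in sos3-2, -0.385 in rhd6-3/rsl1-1 and -0.214 in chx25-3. In that order, 34, 29, 31 and 28 of 37 genes were below 0. The mutant rhd6-3/rsl1-1 is affected in RHD6, which starts hair formation, and in RSL1. Its hair genes scattered from -3.29 for EXPA18 to 1.87 for ERU, with MRH6 and IRE at 0, so that its median is uncertain. For the Casparian strip genes the median was -0.167, -0.187, -0.003 and -0.382 in the mutants in the same order, and for sulfate -0.232, 0.437, -0.102 and 0.017. Tonoplast aquaporins were below 0 in every mutant, from -0.420 in esb1-1 to -0.296 in rhd6-3/rsl1-1, and the salicylic acid genes above 0, from 0.472 to 0.581. The difference between wild type and the mean of the mutants was called for 2 of 20347 genes, or 0.00983%, and for 0 list members in edgeR. Of the sulfate genes 4 of 18, of the root hair growth genes 1 of 37 and of the Casparian strip genes 1 of 19 had an unadjusted p under 0.05 for this difference, against 1.66% of all genes. The mean of the mutants includes rhd6-3/rsl1-1 with its scattered hair gene values, so that this count is uncertain for root hair growth genes. The 4x line of each mutant was made separately from the wild-type line, so that line and genotype cannot be told apart.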

How the data were processed

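The authors sequenced QuantSeq 3′ mRNA libraries and quantified 81620 transcripts with Salmon; its version, the transcript set, the genome build and the use of strand are not given in the sources used here. The authors deposited, per sample, estimated counts per transcript, which were not whole for 14.89% to 16.51% of transcripts in the 6 libraries, and TPM values, which Salmon scales by effective transcript length to a fixed total. Salmon divides reads among near-identical genes, so that close paralogs and overlapping genes are uncertain.

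Expected counts were summed per locus and rounded. Of 88 libraries, 86 fell into 30 groups, and 2 whose title and genotype disagreed were left out. Genes had to reach 2 CPM in 6 or more libraries (20347 of 33681 did), and TMM scaling and one quasi-likelihood model with a mean per group were fitted (edgeR 4.0.16, R 4.3.3). P-values were adjusted by Benjamini-Hochberg over all genes in each contrast, and a call required both an adjusted p under 0.05 and a log2 fold change of 0.5 or more in size. TPM entered only an alternative. Each ploidy had 3 plants. P-values and SEs rest on a spread estimated over all 30 groups, which include mutants, shoots and plate roots. They do not measure the spread between these plants alone. Organelle genes took 1.355% to 2.297% of reads in 4x and 1.464% to 2.23% in 2x. Floors cover counting error only. The fit was tested on simulated data with the same spread for all genes and changes larger than the list medians. That test does not cover shifts of the size described for the lists.

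The gene lists, and the choice of this comparison, were made with earlier results of these data known, and 112 of the tested genes had been picked by the study in these libraries. Lists are described by counts and medians without a test; 14 loci are in more than 1 list. Genes named are the called genes, in each list up to 4 members a direction with the smallest unadjusted p under 0.05 and no overlap between ploidies, fixed candidates of the potassium, sodium, barrier and root hair pathways, and the most abundant marker of a tissue; others are said to be named after their values were seen. Loci without a RefSeq symbol keep their code. One gene that the rule selects is not reported here. Promoter windows were read from RefSeq TAIR10.1 independently of the authors' index. Alternatives were the libraries entering the fit, scaling, filter, tool, a replicate block, the library number, and leaving out each library, and, added after seeing the data, lists without the genes the study picked.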

Additional observations from a re-analysis of the deposited data

Results flagged for a closer look

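A difference between the effect of ploidy in wild-type soil roots and the mean effect in the 4 mutants was called for 2 genes, by edgeR's test of the difference itself. Genes all but absent at 1 ploidy of the wild type had larger differences without a call. These were -11.1 for AT3G01345, -6.21 for AT2G03821 and 9.28 for AT1G75945. Genes without a call can therefore not be taken to behave alike in the mutants. For the pseudogene AT3G29647 the difference was 2.84 on the log2 scale (SE 0.40, adjusted p = 2.69e-05). It had 23.3, 31.9 and 24.5 CPM in 4x against 10.0, 3.25 and 2.06 CPM in 2x wild-type soil roots, and log2 fold changes of 0.05, -0.25, -1.30 and -0.35 in esb1-1, sos3-2, rhd6-3/rsl1-1 and chx25-3. For QQS the difference was 2.34 (SE 0.46, adjusted p = 0.0318), with log2 fold changes of -0.37, 0.25, 1.52 and -0.10 in the same mutants, and in plate roots of the wild type QQS had 3.52. The line and the genotype of each mutant cannot be told apart in this difference.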

How the results depend on the processing

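The number of genes called between 4x and 2x was 10. It was 5 with the 6 libraries fitted alone, 17 with DESeq2, 6 with the older quasi-likelihood form, 16 with limma-voom on counts, 110 with limma-voom on scaledTPM, 5 with replicates 2 and 3 alone and 19 with the soil roots alone, and ran from 4 to 8 when 1 library was left out. The soil minus plate difference called 0 genes, and 3 with DESeq2. The wild-type minus mutant difference called 2 genes, 4 with limma-voom on counts, and 1 to 2 with 1 library left out. The median log2 fold change of root hair growth genes, -0.603, was -0.727 with the library number as a covariate, -0.740 with replicates 2 and 3 alone and -0.742 to -0.529 with 1 library left out. That of potassium channels, -0.086, was -0.002, -0.200 with scaledTPM, -0.020 with replicates 2 and 3 alone and -0.132 to -0.032 with 1 library left out. The medians of the Casparian strip, sulfate and potassium carrier lists stayed within the spread between libraries in every alternative. The median over all genes stayed within 0.006 of 0. GL2, at 0.04 in the main comparison, turned to -0.323 with the covariate, -0.0814 and -0.0673 with limma-voom on counts and scaledTPM, -0.0171 with the replicate block and -0.408 with replicates 2 and 3 alone. SEOR1 turned to 0.0211 with the covariate and 0.063 with replicates 2 and 3 alone, SOS1 to 0.0875 with replicates 2 and 3 alone, PSBO1 to -0.101 and SCN1 to 0.0278 with the covariate, and PRP1 to 0.309 and 0.162 with limma-voom on counts and scaledTPM. With 1 library left out, values ran from -0.57 to 0.311 for GL2, from -0.474 to 0.159 for RHD6, from -0.805 to 0.128 for RSL4, from -0.336 to 0.0194 for AKT1, from -0.216 to 0.0575 for SOS1, from -0.244 to 0.123 for SEOR1, from -0.25 to 0.0756 for SHV3, from -0.72 to 0.584 for PRP1, from -0.0998 to 0.0141 for SCN1 and from -0.0826 to 0.379 for PSBO1. The cause of these changes was not tested.

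Libraries with the same replicate number had correlated deviations of 0.16, 0.0674 and 0.17, so that the numbers do not pair the plants by the rule of every correlation above 0.1, although each library correlated best with its own number. A replicate block gave 10 called genes and 737 genes with an unadjusted p under 0.05, against 719 without it.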
